A study of Homo sapiens with 12 samples.

Results

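The effect of BBOX1 on RNA levels was compared between tumours and cultured cells of 1 human kidney cancer line. For every gene the log2 effect of BBOX1 in culture was subtracted from the log2 effect of BBOX1 in xenografts, so a negative difference means that BBOX1 lowered the transcript more, or raised it less, in xenografts than in culture. The contrast needs all 4 groups and therefore used all 12 libraries of the 12 in the series. The cells were 786-O, an established line of clear cell renal cell carcinoma, and each group had 3 libraries of polyadenylated RNA: xenografts of cells with lentiviral re-expression of BBOX1, xenografts of cells with the empty vector (EV), cultured cells with BBOX1, and cultured cells with EV. Xenografts grew in NOD SCID gamma (NSG) mice, which lack mature lymphocytes and were 6 to 8 weeks old, and cultured cells grew in DMEM with serum. All cells had been infected with lentivirus and selected with puromycin or neomycin, depending on the vector. The labels name 1 line and give no number of animals, no tumour size and no time of growth. The series title places the comparison within a study of BBOX1, the kinase TBK1 and mTORC1. Whether the 3 libraries of a group stem from separate dishes or mice is not stated in the labels. The p-values therefore reflect the spread among these libraries alone, which may be technical.

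BBOX1 encodes gamma-butyrobetaine dioxygenase, which uses oxygen and 2-oxoglutarate to carry out the last step of carnitine synthesis. Carnitine carries long-chain fatty acids into mitochondria. Cells in a tumour share oxygen, glucose and amino acids with their neighbours, while cells in culture are bathed in rich medium, and the transcription factors HIF, ATF4 and NRF2 adjust transcription to low oxygen, to a shortage of amino acids and to oxidative stress.

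Total counts per library were 13729031, 15054113 and 16159837 in BBOX1 xenografts, 15171681, 18937852 and 17968022 in EV xenografts, 26758712, 18272906 and 15627686 in BBOX1 culture and 16317539, 16357127 and 22067530 in EV culture. Xenografts varied more: the biological coefficient of variation was 16.73% over the 6 xenograft libraries and 3.327% over the 6 culture libraries. A chi-square of counts per degree of freedom was 46.4 and 46.3 for BBOX1 xenograft replicate 1 against replicates 2 and 3, 9.52 between those 2, 12.8 to 16.4 among EV xenografts and 1.91 to 2.81 among culture libraries of a group. BBOX1 xenograft replicate 1 therefore stood apart, and counts of calls over all genes and over gene lists are given with and without it. Markers of the carcinoma line summed to 8930 to 9830 CPM (counts scaled to a common library size) in BBOX1 xenografts, 9190 to 9650 CPM in EV xenografts, 8460 to 8560 CPM in BBOX1 culture and 8860 to 8910 CPM in EV culture. Fibroblast and pericyte markers, led by COL1A1 and COL3A1, summed to 297 to 380.0 CPM in BBOX1 xenografts, 263 to 429 CPM in EV xenografts, 13.5 to 16.8 CPM in BBOX1 culture and 15.4 to 18 CPM in EV culture, and 1 of its 9 tested members, LUM, passed the test below. Their part in any result was not tested. At 0 in all 12 libraries were 1 of 14 endothelial markers (CDH5) and 2 of 13 lymphocyte markers (CD3E and CD3G). So were 7 of 16 macrophage and neutrophil markers, C1QB and CD163 among them, and 5 of 9 erythroid markers, HBA1 and HBB among them. The other members had counts. ITGAM of macrophages averaged 1.31 and 1.47 CPM in BBOX1 and EV xenografts, against 0.146 and 0.0547 CPM in BBOX1 and EV culture. Muscle and adipocyte markers summed to 5.11 to 7.86 CPM in BBOX1 xenografts and 3.76 to 5.65 CPM in EV xenografts. In BBOX1 and EV culture they summed to 0.985 to 1.98 and 1.22 to 1.36 CPM. In bulk RNA fewer cells that carry a transcript and less of it per cell cannot be told apart.

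BBOX1 acted differently in the 2 settings on 878 of 16927 tested genes, a background of 5.19% (edgeR quasi-likelihood test, Benjamini-Hochberg adjusted p under 0.05). The difference was positive for 326 genes (1.93%) and negative for 552 (3.26%). The median absolute difference was 0.76 on the log2 scale among the positive, 0.66 among the negative and 0.29 over all tested genes, and 99 positive and 149 negative differences reached a log2 size of 1. In xenografts, BBOX1 and EV libraries did not overlap for 303 of the 326 and 544 of the 552, against 13.6% of tested genes with all BBOX1 xenografts above all EV xenografts and 15% with all below. In culture the 2 groups did not overlap for 161 of the 326 and 276 of the 552, where 14.5% of tested genes had all BBOX1 libraries above and 14% all below. The counts take either direction, so the 2 shares of a setting together are their background. The test used these same libraries, so the counts describe the genes it selected and are no further support.

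Because edgeR fits 1 spread to both settings, each call was also made with limma voom and a quality weight per setting, which came to 0.5327 for xenografts and 1.877 for culture. That fit called 532 positive (3.14%) and 924 negative differences (5.46%), together 8.6% of tested genes, and 304 of the 326 and 521 of the 552 edgeR calls were among them in the same direction. DESeq2 called 605 positive (3.57%) and 1088 negative differences (6.43%), together 10% of tested genes. Counts of calls depended on single libraries, and on single culture libraries more in edgeR than in limma voom. Without BBOX1 xenograft replicate 1, edgeR called 1432 positive (8.23%) and 2750 negative differences (15.8%), the background for list counts without it. Without any 1 of the 6 culture libraries it called 63 to 84 and 206 to 241, and without EV xenograft replicate 2 it called 93 and 265. Positive calls numbered 493 without EV xenograft replicate 1, 193 without EV xenograft replicate 3 and 167 without BBOX1 xenograft replicate 3. 227 genes passed in all 12 of these fits, and the genes named below did so unless their sentence says otherwise.

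**Figure D1:**
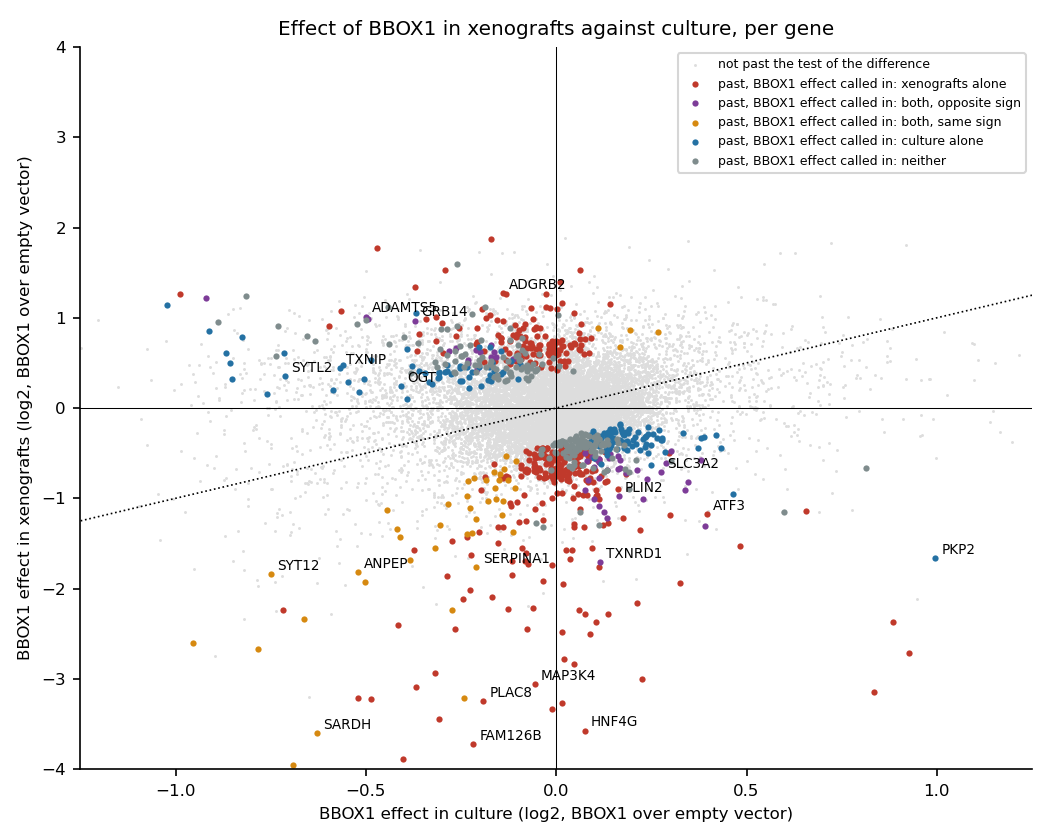
Each point is a gene, with its log2 effect of BBOX1 over EV in culture on the x axis and in xenografts on the y axis; colours mark the 878 genes past the test of the difference by the setting in which their effect was called, and the dotted line marks equal effects. Negative differences lie below the dotted line and positive ones above it, with MAP3K4, FAM126B and PLAC8 near the bottom; 53 of the 878 lie outside the axes or lack a separate effect in 1 setting.

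The restored gene itself had 18529, 20016 and 29665 counts in BBOX1 xenografts and 10, 6 and 14 counts in EV xenografts, against 29085, 20202 and 16953 counts in BBOX1 culture and 0 counts in each EV culture library. All 12 libraries carried the level that their labels give. BBOX1 passes the test as a negative difference (adjusted p = 0.0185) because EV culture is at 0 counts, where the fitted effect depends on the prior count, and the call is lost without EV culture replicate 3 (adjusted p = 0.0608). Against a floor of 3 counts over the EV culture group, BBOX1 culture was at least 19926-fold higher. BBOX1 overlaps the antisense gene BBOX1-AS1, and with a library kit that does not mark strand their reads cannot be told apart.

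TBK1, the mTOR kinase gene MTOR and RPTOR did not pass the test of the difference in edgeR or limma voom. TBK1 stood at 27.5, 23.2 and 20.9 CPM in BBOX1 xenografts, 20, 21.7 and 21.3 CPM in EV xenografts, 28.9, 28.9 and 24.9 CPM in BBOX1 culture and 26.9, 26.6 and 29.4 CPM in EV culture, a difference of 0.19 (SE 0.15, edgeR adjusted p = 0.487). The differences of MTOR and of RPTOR, the subunit that recruits mTORC1 substrates, were 0.07 (SE 0.14) and -0.32 (SE 0.21), and for all 3 genes the 2 xenograft groups overlapped. The sign for MTOR changed to -0.064 without BBOX1 xenograft replicate 1. Of 37 tested members of the mTORC1 and nutrient sensing list 2 had a negative difference past the test (5.41%), with a median of -0.06 beside 0.00 over all tested genes. They were EIF4EBP1 (-0.64, SE 0.17), a repressor of translation that mTORC1 phosphorylates, and SEH1L (-0.42, SE 0.12), a nucleoporin that is also a subunit of the GATOR2 complex. Both edgeR calls were lost in 10 of the 12 fits without 1 library, with adjusted p up to 0.114 and 0.129. That of EIF4EBP1 remained without BBOX1 xenograft replicate 1 or 2 alone. That of SEH1L remained without BBOX1 xenograft replicate 1 or EV xenograft replicate 3 alone. In limma voom EIF4EBP1 passed in all 12 such fits (adjusted p up to 0.032) and SEH1L in 1 (up to 0.167). Over the list, limma voom called 3 negative, DESeq2 6, and edgeR 0 to 7 without 1 library, with 7 negative and 2 positive without BBOX1 xenograft replicate 1. Of 20 tested genes in a list of TBK1 partners and targets 0 passed in edgeR (5 at an unadjusted p under 0.05), 1 in limma voom and 2 in DESeq2, with a median of -0.20, and without BBOX1 xenograft replicate 1 edgeR called 1 positive and 9 negative. Over all 16927 tested genes 3956 had an unadjusted edgeR p under 0.05.

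The 878 genes were sorted in 2 ways by their 4 group means. By setting, the BBOX1 effect was called in xenografts alone for 395, in culture alone for 164, in both with opposite signs for 52, in both with the same sign for 45, and in neither for 222, whose effects passed as a difference only. Over the tested genes, effects were called for 5.54% in the 6 xenograft libraries (1.91% rose and 3.63% fell) and 16.4% in the 6 culture libraries (8.54% rose and 7.87% fell). By group, 1 of the 4 means stood apart from the other 3 for 495 genes: BBOX1 xenografts were low for 209 and high for 107, EV xenografts were high for 132 and low for 42, and BBOX1 culture was low for 5. EV culture stood apart for 0 genes, and 383 genes had no mean apart. No such shares over all tested genes are given beside these counts. A mean stood apart where its gap to the nearest other mean on log2(CPM + 0.5) exceeded the range of the other 3, tried for the mean whose removal left the narrowest range.

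**Figure D2:**
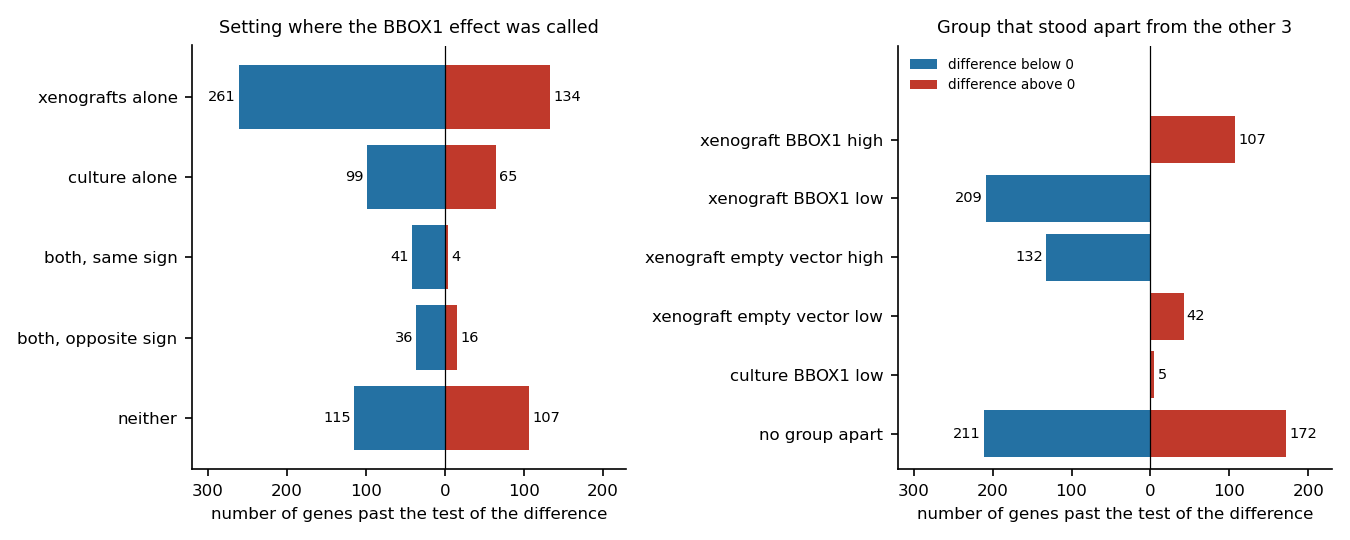
Bars count the genes past the test of the difference, with negative differences to the left and positive ones to the right. The left panel sorts them by the setting where BBOX1 had a called effect (395 in xenografts alone), the right panel by the group mean that stood apart (209 with low BBOX1 xenografts, 132 with high EV xenografts).

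These patterns can also be read as the change of mean levels between culture and xenograft libraries with the same vector. BBOX1 cells and EV cells here stand for the bulk libraries with that vector, which in xenografts also held fibroblast and pericyte markers. Among the 132 genes with high EV xenografts, the median change between culture and xenograft was 0.00 (quartiles -0.19 and 0.28) on the log2 scale in BBOX1 cells and 1.03 (0.59 and 1.79) in EV cells. Levels with EV were higher in xenograft than in culture libraries, while those with BBOX1 were near culture levels. Among the 209 genes with low BBOX1 xenografts it was -0.71 (-1.15 and -0.51) in BBOX1 cells and -0.07 (-0.27 and 0.12) in EV cells. Over all 552 negative differences, 435 genes were lower in xenografts than in culture with BBOX1, while with EV 254 were lower and 298 higher. Over all 326 positive differences, 284 were higher in xenografts and 42 lower with BBOX1, while with EV 186 were higher and 140 lower. No such shares over all tested genes are given, so the part of a general shift between the settings was not tested. The sorting uses these same means, so the medians are a description of it.

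**Figure D3:**
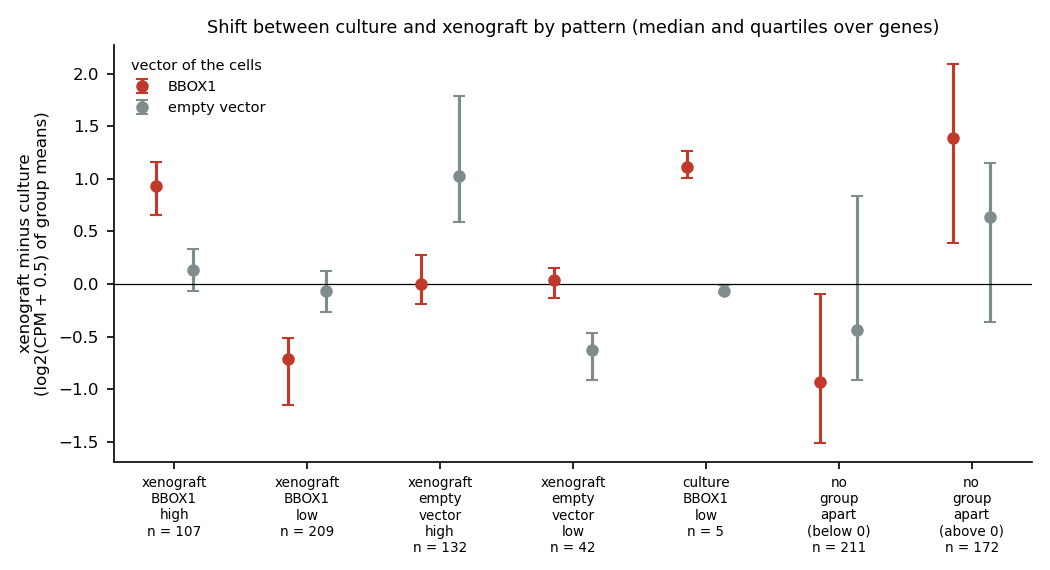
Points are medians over genes, and whiskers quartiles, of the xenograft mean minus the culture mean on log2(CPM + 0.5), for BBOX1 cells (left of each pair) and EV cells (right). For genes with high EV xenografts the BBOX1 cells sit at 0.00 and the EV cells at 1.03; for genes with low BBOX1 xenografts the BBOX1 cells sit at -0.71 and the EV cells at -0.07.

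Targets of ATF4 and the integrated stress response, many of which serve amino acid uptake and serine metabolism, had many negative differences past the test. Of 36 tested members 14 had a negative difference past the test (38.9%, beside 3.26% of all tested genes) and 0 a positive one, with a median of -0.50. 10 of the 14 passed in all 12 fits without 1 library, and 19 negative and 2 positive passed without BBOX1 xenograft replicate 1. In the xenograft libraries 11 members fell with BBOX1 and 0 rose, while in culture 9 rose and 8 fell.

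SLC3A2, the heavy chain that carries amino acid exchangers to the cell surface, showed opposite effects. It had 187, 240.4 and 217 CPM in BBOX1 xenografts, 345, 376 and 335 CPM in EV xenografts, 378, 373 and 375 CPM in BBOX1 culture and 309.6, 311 and 309 CPM in EV culture. All 3 BBOX1 xenografts lay below every other library, and all BBOX1 culture libraries lay above all EV culture libraries. It fell with BBOX1 in xenografts (log2 -0.71, SE 0.13) and rose in culture (0.28, SE 0.03), a difference of -0.99 (SE 0.12, edgeR adjusted p = 0.000732).

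SHMT2, the mitochondrial serine hydroxymethyltransferase that splits serine into glycine and a one-carbon unit, had 107, 91.8 and 85.6 CPM in BBOX1 xenografts, 153, 181 and 155 CPM in EV xenografts, 239, 237 and 236 CPM in BBOX1 culture and 223, 216 and 219.5 CPM in EV culture. SLC1A5, a glutamine transporter, had 38.1, 49.7 and 47.6 CPM in BBOX1 xenografts, 63.1, 78.6 and 73.1 CPM in EV xenografts, 264, 267 and 273 CPM in BBOX1 culture and 242, 241 and 232 CPM in EV culture. Both fell with BBOX1 in xenografts and rose in culture without overlap, with differences of -0.90 (SE 0.13) and -0.83 (SE 0.14). For SHMT2 the BBOX1 xenografts were the low group, whereas for SLC1A5 both xenograft groups lay far below culture.

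ATF3, a stress-induced transcription factor, stood at 3.36, 3.64 and 4.09 CPM in BBOX1 xenografts, 6.6, 7.75 and 10.8 CPM in EV xenografts, 6.09, 5.91 and 6.42 CPM in BBOX1 culture and 3.81, 5.16 and 4.95 CPM in EV culture. BBOX1 xenografts lay below EV xenografts and BBOX1 culture above EV culture. Its fall in xenografts passed (log2 -1.17, SE 0.25), its log2 effect of 0.40 in culture did not (adjusted p = 0.0679), and the difference was -1.58 (SE 0.28, edgeR adjusted p = 0.00645). PCK2, the mitochondrial phosphoenolpyruvate carboxykinase, and SLC7A11, a cystine transporter that also counts among NRF2 targets, fell in both settings but further in xenografts. PCK2 had 26.3, 27.6 and 26.9 CPM in BBOX1 xenografts, 56.2, 56.3 and 46.9 CPM in EV xenografts, 56.7, 54.3 and 52.9 CPM in BBOX1 culture and 64, 65 and 64.2 CPM in EV culture. BBOX1 xenografts were its low group, at less than every library of the other 3 groups, and the difference was -0.74 (SE 0.12). SLC7A11 was scarce in every xenograft, at 5.42, 3.29 and 3.39 CPM with BBOX1 and 8.8, 11 and 8.56 CPM with EV against 87.5, 93.4 and 82.1 CPM and 96.6, 103 and 105 CPM in culture, with a difference of -1.03 (SE 0.20). The transcription factor CEBPB differed by the EV xenografts instead: 68.9, 79.5 and 81.6 CPM in BBOX1 xenografts, 117, 139 and 141 CPM in EV xenografts and 45.5 to 50.4 CPM over the 6 culture libraries, with a difference of -0.81 (SE 0.13).

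Sequence before the start sites is shown for 2 of these genes that hold the letters TGATGNAA, the motif bound by ATF4 with a C/EBP partner, to place the list beside its motif. Sequences are from RefSeq (GRCh38.p14), cover the 250 bases before 1 annotated start, run 5′ to 3′ along the gene's strand, and carry the matches on either strand in capitals. ATF3 is chr1:212565157-212565406, plus strand, the start of its 2 that holds a match, and SLC1A5 is chr19:46784815-46785064, minus strand, 1 of its 3 starts.
ATF3: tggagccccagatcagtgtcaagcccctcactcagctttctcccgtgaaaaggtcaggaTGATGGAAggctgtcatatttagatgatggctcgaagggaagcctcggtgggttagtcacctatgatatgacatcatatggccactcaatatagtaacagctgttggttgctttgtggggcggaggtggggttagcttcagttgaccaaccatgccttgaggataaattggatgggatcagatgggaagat
SLC1A5: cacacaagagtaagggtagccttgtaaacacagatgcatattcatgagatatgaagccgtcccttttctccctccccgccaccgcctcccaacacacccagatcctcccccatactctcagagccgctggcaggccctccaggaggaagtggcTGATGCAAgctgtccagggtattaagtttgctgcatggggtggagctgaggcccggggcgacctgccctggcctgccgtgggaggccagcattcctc
The match ends 183 bases before the ATF3 start and 89 bases before the SLC1A5 start. RefSeq promoters were matched by symbol for 11635 of the 16927 tested genes. The letters occurred in 3.14% of all 35116 windows of this length, in 1.78% of windows of tested genes in 6 of 44 windows (13.6%) of the 29 matched list members and in 3 of 20 windows (15%) of the 10 of them with a negative difference. The matches describe letters in these windows and not a site in use.

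**Figure D4:**
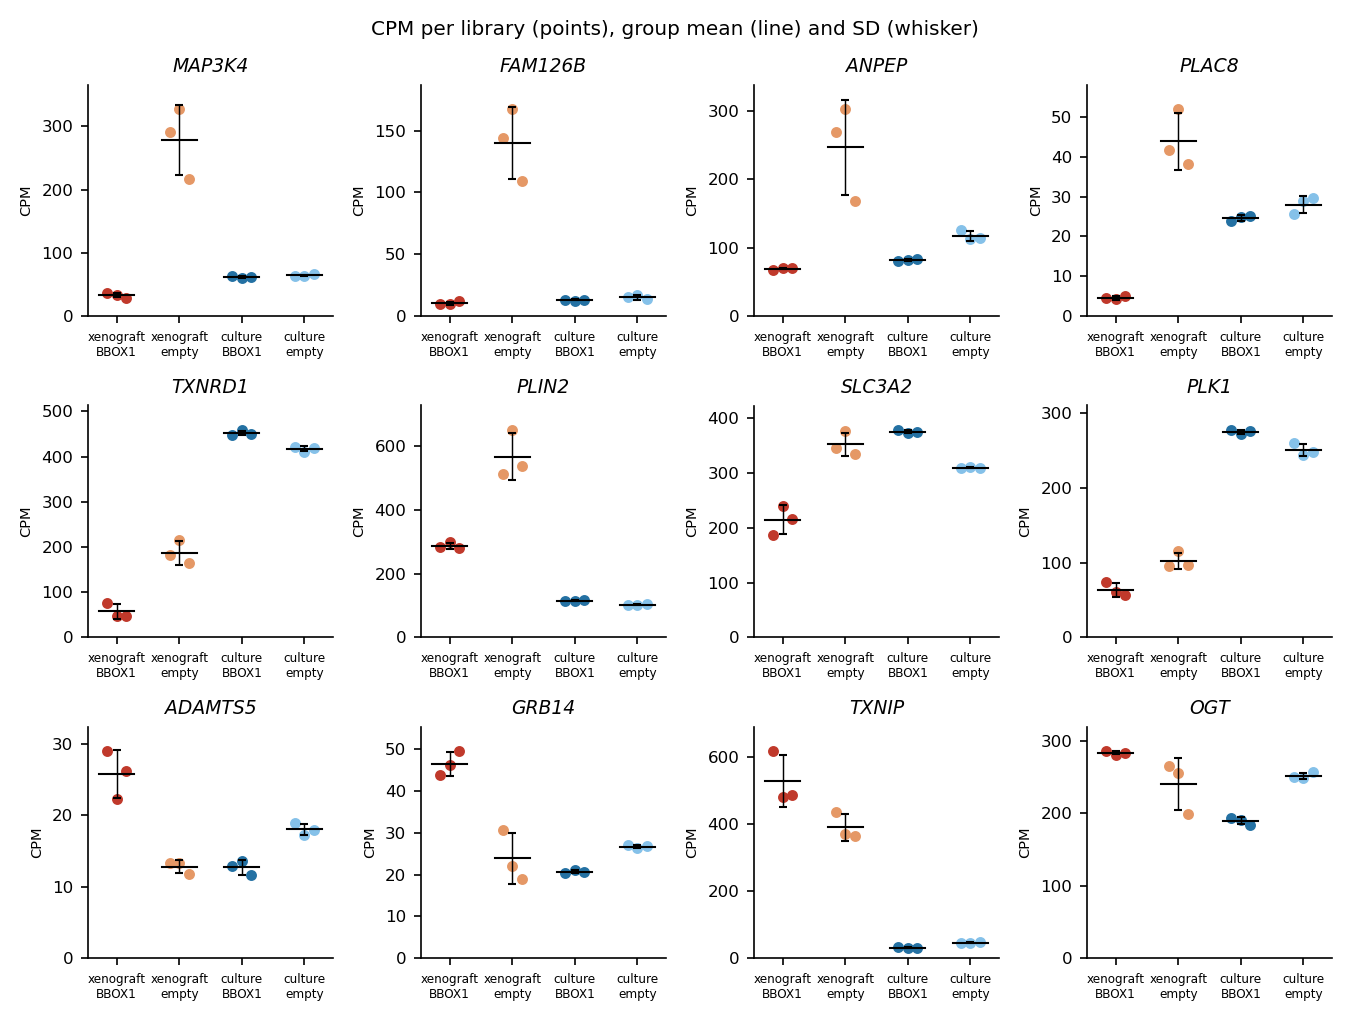
CPM of 12 genes in each library (points), with the group mean (line) and SD (whisker), n = 3 libraries per group; the y axes start at 0 and differ between panels. MAP3K4, FAM126B and ANPEP are high in EV xenografts alone, PLAC8, TXNRD1, SLC3A2 and PLK1 are lowest in BBOX1 xenografts, PLIN2 is high in both xenograft groups, ADAMTS5 and GRB14 are highest in BBOX1 xenografts, and OGT is lowest in BBOX1 culture.

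Targets of NRF2, the factor that induces enzymes of thioredoxin and glutathione metabolism, were all negative where they passed. Of 29 tested members 8 had a negative difference (27.6%) and 0 a positive one, with a median of -0.32; 4 of the 8 passed in all 12 fits without 1 library, and 14 negative and 3 positive passed without BBOX1 xenograft replicate 1. TXNRD1, cytosolic thioredoxin reductase, had 76.3, 47.7 and 47.4 CPM in BBOX1 xenografts, 181, 215 and 164 CPM in EV xenografts, 447, 458 and 451 CPM in BBOX1 culture and 421, 410.3 and 419.9 CPM in EV culture. Every BBOX1 xenograft lay below every EV xenograft, which lay below all culture libraries, where BBOX1 was higher. Its difference of -1.82 (SE 0.21, edgeR adjusted p = 0.000332) combined a log2 change of -1.70 in xenografts with one of 0.11 in culture, both past the test. HMOX1, heme oxygenase 1, was high in EV xenografts alone, with 33.5, 41.2 and 26.4 CPM in BBOX1 xenografts, 69.6, 90.5 and 60.5 CPM in EV xenografts and 36.6 to 42.2 CPM over culture libraries, a difference of -1.18 (SE 0.21). TKT, the transketolase of the pentose phosphate pathway, had 249, 276 and 261 CPM in BBOX1 xenografts, 369, 419 and 362 CPM in EV xenografts and 713 to 756 CPM in culture, with a difference of -0.58 (SE 0.11).

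The region before the first TXNRD1 start (chr12:104215529-104215778, plus strand) holds 1 match to TGACNNNGC, the core of the antioxidant response element bound by NRF2, in capitals.
TXNRD1: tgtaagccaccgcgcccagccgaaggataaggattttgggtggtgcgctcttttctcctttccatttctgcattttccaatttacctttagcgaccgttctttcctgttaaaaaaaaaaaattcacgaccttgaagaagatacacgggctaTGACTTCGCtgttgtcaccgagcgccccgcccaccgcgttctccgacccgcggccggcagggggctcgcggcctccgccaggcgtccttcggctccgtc
The match ends 90 bases before the start. These letters occurred in 10.9% of all windows and in 11.6% of windows of tested genes. Both annotated TXNRD1 starts hold a match, and 0 of the other 4 matched list members with a negative difference do.

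Hypoxia-inducible and glycolytic genes that passed all had negative differences. In the HIF target list 8 of 34 tested members had a negative difference (23.5%) and 0 a positive one, with a median of -0.45, and in the glycolysis list 9 of 25 (36%) and 0, with a median of -0.47. The lists share members, SLC2A1 and LDHA among them. Within xenografts 10 HIF targets and 8 glycolysis genes fell and 0 rose. Of the 8 and 9 past the test, 2 and 4 passed in all 12 edgeR fits without 1 library, and 6 and 9 in all 12 of limma voom. Without BBOX1 xenograft replicate 1 edgeR made 16 negative calls in each list and 1 positive call among HIF targets. 786-O cells lack functional VHL, the protein that marks HIF for destruction, so HIF can be active in them with oxygen present. Its activity was not measured here.

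PLIN2, which coats the lipid droplets that give clear cell carcinoma its look, had 283, 299 and 280.2 CPM in BBOX1 xenografts, 513, 650.2 and 539 CPM in EV xenografts, 114, 114 and 118 CPM in BBOX1 culture and 102, 101 and 104 CPM in EV culture. Every xenograft library exceeded every culture library, BBOX1 lowered it in xenografts (log2 -0.98, SE 0.13) and raised it in culture (0.16, SE 0.04), and the difference was -1.15 (SE 0.12, edgeR adjusted p = 0.000252). SLC2A1, the glucose transporter GLUT1, had 739, 797 and 669.7 CPM in BBOX1 xenografts, 1124, 1401 and 1314 CPM in EV xenografts, 992, 1009 and 976 CPM in BBOX1 culture and 919.7, 951 and 937 CPM in EV culture. BBOX1 xenografts lay below every culture library and EV xenografts above every one, and its difference was -0.88 (SE 0.13). PFKP, a phosphofructokinase, and SLC16A3, the lactate exporter MCT4, likewise fell in xenografts and rose in culture, with differences of -0.70 (SE 0.11) and -0.58 (SE 0.10).

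PKM, the muscle-type pyruvate kinase and one of the most abundant transcripts, had 3204, 3147 and 2843 CPM in BBOX1 xenografts, 4679, 4914 and 4526 CPM in EV xenografts, 3931, 3933 and 3881 CPM in BBOX1 culture and 3902, 3921 and 3868 CPM in EV culture. BBOX1 xenografts were low and EV xenografts high around culture libraries that differed little, with a difference of -0.63 (SE 0.11, edgeR adjusted p = 0.00651). LDHA, lactate dehydrogenase A, averaged 1144 ± 102 CPM in BBOX1 xenografts and 1672 ± 88.4 CPM in EV xenografts, with 1648 to 1783 CPM over culture (SD, n = 3 each); BNIP3, a mitophagy receptor, had a difference of -0.57 (SE 0.14). CA9, carbonic anhydrase 9, was nearly silent in culture, at 0.504 to 1.07 CPM, and had 7.49, 2.33 and 5.82 CPM in BBOX1 xenografts against 30.2, 59.8 and 30.6 CPM in EV xenografts, a difference of -2.63 (SE 0.69). The edgeR calls of LDHA, BNIP3 and CA9 were lost without any 1 of the 6 culture libraries and without EV xenograft replicate 2. Those of BNIP3 and CA9 were also lost without BBOX1 xenograft replicate 3, and adjusted p reached 0.0792, 0.0885 and 0.133. In limma voom LDHA passed in all 12 fits without 1 library, BNIP3 in 11 and CA9 in 8, with adjusted p up to 0.0169, 0.0557 and 0.0604. ERO1A, an oxidase of the endoplasmic reticulum that counts in the unfolded protein response list, had 60.1, 57.7 and 50.2 CPM in BBOX1 xenografts, 110.4, 132 and 102 CPM in EV xenografts, 88.7, 103 and 95.9 CPM in BBOX1 culture and 102, 106 and 107 CPM in EV culture, a difference of -0.90 (SE 0.14).

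The windows before the starts of CA9 (chr9:35673678-35673927, plus strand) and PLIN2 (chr9:19127493-19127742, minus strand) are shown for ACGTG, the core of the hypoxia response element, in capitals on either strand; overlapping matches on both strands merge.
CA9: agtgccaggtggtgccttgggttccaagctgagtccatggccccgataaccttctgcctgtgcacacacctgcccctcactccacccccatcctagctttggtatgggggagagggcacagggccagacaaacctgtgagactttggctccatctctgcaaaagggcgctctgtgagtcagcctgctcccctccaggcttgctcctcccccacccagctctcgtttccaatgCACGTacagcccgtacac
PLIN2: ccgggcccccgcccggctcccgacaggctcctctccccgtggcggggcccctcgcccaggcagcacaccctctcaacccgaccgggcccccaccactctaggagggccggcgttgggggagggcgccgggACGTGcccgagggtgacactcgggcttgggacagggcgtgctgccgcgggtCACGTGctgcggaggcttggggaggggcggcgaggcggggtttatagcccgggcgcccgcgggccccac
CA9 holds 1 match, which ends 13 bases before the start, and PLIN2 holds 3. Such a short motif is common: it occurred in 18.5% of all windows and in 21.9% of windows of tested genes, beside 4 of 7 windows (57.1%) of the 6 matched HIF targets with a negative difference and 19 of 42 (45.2%) of the 27 matched HIF targets.

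Among cell cycle genes BBOX1 acted in opposite directions in the 2 settings for part of the list. Of 46 tested members 17 had a negative difference (37%) and 0 a positive one, with a median of -0.49, and 44 of 46 differences were negative, beside 50.1% of all tested genes. In culture 14 members rose and 4 fell, and in xenografts 10 fell and 0 rose. 7 of the 17 passed in all 12 edgeR fits without 1 library and 10 in all 12 of limma voom. Without BBOX1 xenograft replicate 1, edgeR called 41.

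PLK1, a kinase of mitotic entry, had 73.4, 60.7 and 56.3 CPM in BBOX1 xenografts, 95.9, 115 and 96.6 CPM in EV xenografts, 277, 272 and 276 CPM in BBOX1 culture and 260.3, 244 and 248 CPM in EV culture. Levels in BBOX1 xenografts were below those in EV xenografts, and both were far below culture, where BBOX1 lay above EV in every library. The fall in xenografts (log2 -0.69, SE 0.14) and the rise in culture (0.13, SE 0.03) gave a difference of -0.83 (SE 0.14, edgeR adjusted p = 0.00447). AURKA, the spindle kinase Aurora A, CCNB1, cyclin B1, and MYBL2, a transcription factor of cell cycle genes, had the same opposite signs, with differences of -0.85 (SE 0.13), -0.68 (SE 0.12) and -0.75 (SE 0.11). PCNA, the DNA polymerase clamp, had 74.7, 73.8 and 68.4 CPM in BBOX1 xenografts, 103, 106 and 105 CPM in EV xenografts and 138 to 154 CPM in culture. Its effect was called in xenografts alone, with a difference of -0.60 (SE 0.10). The alpha tubulins TUBA1B and TUBA1C are nearly identical, so their reads may be shared; TUBA1C had 276, 233 and 203 CPM in BBOX1 xenografts, 431, 446 and 464 CPM in EV xenografts, 570.2, 573 and 568 CPM in BBOX1 culture and 542, 549 and 531 CPM in EV culture, with BBOX1 xenografts the low group, and differed by -0.99 (SE 0.13), and TUBA1B by -1.02 (SE 0.17).

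The transcripts of cytosolic ribosomal proteins that passed the test had negative differences. 76 of 78 differences were negative, 11 passed (14.1%) and 0 positive ones did, with a median of -0.25. In culture 39 rose with BBOX1 and 1 fell, and in xenografts 5 fell and 0 rose. 3 of the 11 passed in all 12 edgeR fits without 1 library, and these are RPL23A, RPL30 and RPS12. In all 12 such fits of limma voom 9 of the 11 passed. Limma voom called 22, DESeq2 25, and edgeR 28 without BBOX1 xenograft replicate 1, all negative. RPL23A had 193, 187 and 182 CPM in BBOX1 xenografts, 274, 272 and 252 CPM in EV xenografts, 282, 279 and 279.8 CPM in BBOX1 culture and 258, 268 and 271 CPM in EV culture. BBOX1 xenografts were the low group, and the difference was -0.58 (SE 0.10). RPL30 rose in culture (log2 0.20, SE 0.03), while its xenograft effect of -0.35 (SE 0.12) did not pass, and its difference was -0.56 (SE 0.11). Ribosomal protein genes have many processed copies, and how reads that match several copies were counted is not given in the sources used here.

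**Figure D5:**
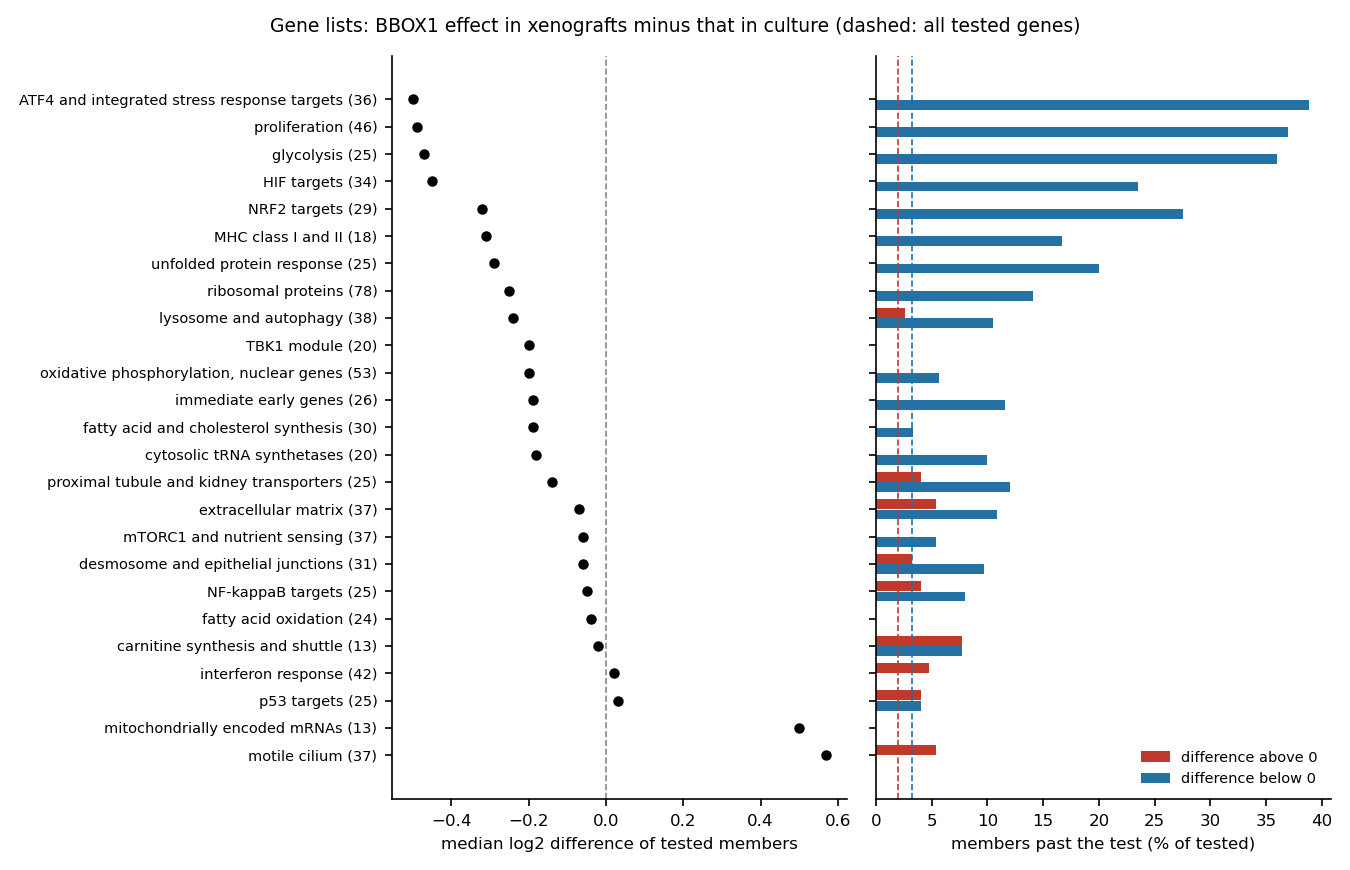
Left: median log2 difference of the tested members of each gene list, with the number tested in brackets; right: share of members past the test with a positive (upper bar) or negative (lower bar) difference. Dashed lines mark all tested genes (median 0.00; 1.93% positive and 3.26% negative). The ATF4, proliferation and glycolysis lists have the most negative medians, and motile cilium and mitochondrially encoded mRNAs the most positive.

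Other lists had 5 or fewer members past the test in each direction. The unfolded protein response list had 5 of 25 negative (20%) and a median of -0.29, MHC class I and II 3 of 18 (16.7%) and -0.31, lysosome and autophagy 4 of 38 negative (10.5%) and 1 positive, with -0.24, and nuclear genes of oxidative phosphorylation 3 of 53 (5.66%) and -0.20. All 20 cytosolic tRNA synthetases had negative differences, with a median of -0.18, and 2 passed. Fatty acid oxidation, which depends on carnitine, had 0 of 24 past the test in edgeR (5 at an unadjusted p under 0.05, all negative) and 2 negative in limma voom and in DESeq2, with a median of -0.04. These 5 of 24 stand beside 3956 of 16927 tested genes at an unadjusted p under 0.05. In the carnitine list 1 of 13 was positive and 1 negative: CROT (0.64, SE 0.16), the peroxisomal carnitine octanoyltransferase, and SHMT2, described above. The edgeR call of CROT was lost without any 1 culture library, without BBOX1 xenograft replicate 3 and without EV xenograft replicate 2 (adjusted p up to 0.108). In limma voom CROT passed in 10 of the 12 fits without 1 library (adjusted p up to 0.0702). Extracellular matrix genes had 4 of 37 negative (10.8%) and 2 positive, with a median of -0.07, desmosome and junction genes 3 of 31 (9.68%) and 1, with -0.06, and fatty acid and cholesterol synthesis 1 of 30 (3.33%) and 0, with -0.19. Interferon response genes had 2 of 42 positive (4.76%) and 0 negative, with a median of 0.02, and NF-kappaB targets 1 of 25 positive and 2 negative, with -0.05.

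More negative differences passed in each of these lists once BBOX1 xenograft replicate 1 was left out, as they did over all tested genes. There negative calls made up 15.8% in place of 3.26%, and positive calls 8.23% in place of 1.93%. Brackets give the members tested with all libraries. Without that replicate, negative calls numbered 18 for lysosome and autophagy (38), 15 for fatty acid and cholesterol synthesis (30) and 13 for oxidative phosphorylation (53). They numbered 12 for the unfolded protein response (25), 11 for extracellular matrix (37), 9 for tRNA synthetases (20), 8 for junctions (31) and 7 for MHC (18). They numbered 7 for fatty acid oxidation (24), 5 for NF-kappaB targets (25), 3 for interferon response (42) and 2 for carnitine (13). The shares for interferon response and carnitine did not exceed that over all tested genes. Positive calls without it were 5 each for extracellular matrix and interferon response, 3 each for junctions and lysosome, 2 for carnitine, 1 each for the unfolded protein response, fatty acid oxidation and NF-kappaB targets, and 0 for MHC, oxidative phosphorylation, tRNA synthetases and fatty acid and cholesterol synthesis.

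Lists with positive medians were few. Motile cilium genes had a median of 0.57 and 2 of 37 past the test (5.41%), both positive, while in the xenograft fit 11 rose and 0 fell. Limma voom and DESeq2 called 5 positive each, edgeR called 9 without BBOX1 xenograft replicate 1, and 0 of the 2 passed in all 12 fits without 1 library. All 13 mitochondrially encoded mRNAs had positive differences with a median of 0.50, and 0 passed in edgeR, limma voom or DESeq2. In edgeR 6 of them had an unadjusted p under 0.05, beside 3956 of 16927 tested genes. Without BBOX1 xenograft replicate 1 all 13 passed, with a median of 0.71. Among 25 p53 targets 1 positive and 1 negative difference passed (1 and 4 without BBOX1 xenograft replicate 1), and the positive one was TP53INP1, a stress-induced autophagy gene, with 81.9, 58.9 and 72.6 CPM in BBOX1 xenografts, 42.4, 41.3 and 39.8 CPM in EV xenografts and 14.9 to 19.3 CPM in culture (difference 0.90, SE 0.16).

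Genes high in EV xenografts alone gave several of the most negative differences. MAP3K4, a kinase upstream of p38 and JNK (chr6:160991727-161117385, plus strand, GRCh38), had 36.3, 34.3 and 29.5 CPM in BBOX1 xenografts, 291, 327 and 217 CPM in EV xenografts, 64, 60.1 and 62.5 CPM in BBOX1 culture and 64, 64 and 66.1 CPM in EV culture. Its 3 EV xenografts exceeded every other library, its BBOX1 xenografts lay below all culture libraries, and it fell with BBOX1 in xenografts (log2 -3.06, SE 0.17), with an effect of -0.06 (SE 0.05) in culture that did not pass. The difference was -3.00 (SE 0.18, edgeR adjusted p = 2.77e-07).

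FAM126B, a paralogue of hyccin (chr2:200973718-201071671, minus strand, GRCh38), had 9.68, 9.88 and 12.1 CPM in BBOX1 xenografts, 144, 167 and 109 CPM in EV xenografts, 13.5, 12.7 and 13.3 CPM in BBOX1 culture and 15.2, 17.5 and 13.6 CPM in EV culture. ANKRD50, which acts in endosomal recycling (chr4:124664052-124712732, minus strand, GRCh38), had 30.8, 19.8 and 19.7 CPM in BBOX1 xenografts, 232, 264 and 160.0 CPM in EV xenografts, 45.3, 44.6 and 47.5 CPM in BBOX1 culture and 49.3, 55.7 and 56.7 CPM in EV culture. HNF4G, a nuclear receptor of the HNF4 family, had 17.6, 11.3 and 9.97 CPM in BBOX1 xenografts, 140.5, 205 and 118 CPM in EV xenografts, 12.7, 11.8 and 11.5 CPM in BBOX1 culture and 11, 12.1 and 11.2 CPM in EV culture. In each of the 3 the EV xenografts exceeded every other library by several times, and among them replicate 2 was the highest and replicate 3 the lowest. BBOX1 xenografts lay below all culture libraries for FAM126B and ANKRD50 and overlapped them for HNF4G. Differences were -3.51 (SE 0.21), -2.98 (SE 0.25) and -3.65 (SE 0.29), and ANKRD50 also fell slightly in culture (log2 -0.24, SE 0.05).

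SNX13, a sorting nexin, and TIPARP, a mono-ADP-ribosyltransferase induced by the aryl hydrocarbon receptor, had the same order of EV xenografts. SNX13 had 40.7, 27 and 30.6 CPM in BBOX1 xenografts, 154, 191 and 113 CPM in EV xenografts and 51.5 to 57.9 CPM in culture, and TIPARP had 36.1, 27.2 and 30.3 CPM in BBOX1 xenografts, 152, 181 and 111 CPM in EV xenografts and 38.2 to 44 CPM in culture. Their differences were -2.16 (SE 0.23) and -2.31 (SE 0.21). Smaller peaks in EV xenografts were seen for LAMB3, the beta chain of laminin-332, PNP, purine nucleoside phosphorylase, and CTSB, the lysosomal protease cathepsin B. LAMB3 had 67.4, 61.4 and 51.6 CPM in BBOX1 xenografts, 161, 171 and 120.5 CPM in EV xenografts and 39.8 to 45.2 CPM in culture, with a difference of -1.41 (SE 0.17). For PNP and CTSB the differences were -1.46 (SE 0.16) and -0.96 (SE 0.19), and the 2 xenograft groups did not overlap. CTSL, a second cathepsin, differed by -0.57 (SE 0.11), and NPC2, the lysosomal cholesterol carrier, by -0.62 (SE 0.12).

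Some genes that were almost silent in culture were high in EV xenografts. DSP, desmoplakin of desmosomes, had 2, 2 and 0 counts in BBOX1 xenografts and 875, 601 and 449 counts in EV xenografts, or 58.4, 32.8 and 26.5 CPM, with 9, 10 and 6 counts in BBOX1 culture and 7, 5 and 2 counts in EV culture. The 2 xenograft groups did not overlap, and culture gave too few counts for a fit of its own. The edgeR adjusted p of the difference was 0.000254. Fitted differences are not printed for DSP and the next 2 genes, since at such counts they depend on the prior count.

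SLC38A3, a glutamine transporter of the kidney, had 9, 3 and 1 counts in BBOX1 xenografts and 261, 621 and 254 counts in EV xenografts, and ST8SIA2, a polysialyltransferase, 1, 0 and 0 counts in BBOX1 xenografts and 107, 196 and 54 counts in EV xenografts. In culture the 6 libraries held 4 counts of SLC38A3 and 4 of ST8SIA2 in all. Their differences passed in edgeR (adjusted p = 0.0445 and 0.0367). They were lost there without any 1 culture library or without BBOX1 xenograft replicate 2 or 3, with adjusted p up to 0.283 and 0.214. In limma voom SLC38A3 passed in all 12 fits without 1 library and ST8SIA2 in 10. LUM, the matrix proteoglycan lumican and a fibroblast marker, had 0.755, 3.29 and 3.9 CPM in BBOX1 xenografts, 17, 30.9 and 16.4 CPM in EV xenografts, 1.71, 2.33 and 1.2 CPM in BBOX1 culture and 1.07, 1.44 and 1.92 CPM in EV culture. EV xenografts alone were high, with a difference of -3.23 (SE 0.61), and the part of fibroblasts in it was not tested. Among the leading fibroblast markers, COL3A1 had 96.8, 66.3 and 85.6 CPM in BBOX1 xenografts, all below 97.4, 120.4 and 129 CPM in EV xenografts, though its xenograft effect did not pass (adjusted p = 0.0999). COL1A1 had 152, 296 and 279 CPM in BBOX1 xenografts and 127, 156 and 286 CPM in EV xenografts, which overlapped, as did the summed markers. In all, 29 genes past the test had both culture means under 0.5 CPM, 13 with a positive and 16 with a negative difference. The share of all tested genes so low in culture is not given.

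A further set was lowest in BBOX1 xenografts. PLAC8, which encodes a small cysteine-rich protein (chr4:83090048-83137075, minus strand, GRCh38), had 4.46, 4.25 and 5.05 CPM in BBOX1 xenografts, 41.8, 51.8 and 38 CPM in EV xenografts, 23.8, 25 and 25.1 CPM in BBOX1 culture and 25.6, 28.8 and 29.6 CPM in EV culture. The BBOX1 xenografts lay below every other library, and the difference of -3.07 (SE 0.18, edgeR adjusted p = 2.77e-07) set a fall of log2 -3.25 (SE 0.17) in xenografts beside an effect of -0.19 in culture that did not pass (adjusted p = 0.0645). DHRS3, a retinaldehyde reductase, had 1.03, 1.65 and 1.53 CPM in BBOX1 xenografts, 8.2, 8.3 and 5.43 CPM in EV xenografts, 15.2, 13 and 12.6 CPM in BBOX1 culture and 13.9, 11.8 and 12.5 CPM in EV culture. UPP1, uridine phosphorylase 1, had 20.5, 17.4 and 18.7 CPM in BBOX1 xenografts, 48.6, 55.6 and 37.2 CPM in EV xenografts and 41.2 to 46.1 CPM in culture. For UPP1 the BBOX1 xenografts alone were low, while for DHRS3 the EV xenografts also lay below every culture library. The differences were -2.47 (SE 0.28) and -1.37 (SE 0.17). EPHB2, an ephrin receptor, fell in xenografts (log2 -1.37, SE 0.14) and in culture (-0.11, SE 0.04), a difference of -1.26 (SE 0.15). AMIGO2, a cell adhesion protein, was lower in all xenografts than in all culture libraries and differed by -1.29 (SE 0.15), with a fall in xenografts and a rise in culture.

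Of the 45 genes with called effects of the same sign in both settings, 40 fell in both and by more in xenografts, 4 rose in both and by more in xenografts, and 1, BBOX1 itself, had the larger fitted rise in culture. SARDH, the sarcosine dehydrogenase of mitochondrial one-carbon metabolism, had 1.17, 1.24 and 3.26 CPM in BBOX1 xenografts, 23.9, 29.4 and 16.7 CPM in EV xenografts, 10.8, 10.4 and 9.5 CPM in BBOX1 culture and 16.2, 17.4 and 14.3 CPM in EV culture. It fell in xenografts (log2 -3.60, SE 0.36) and in culture (-0.63, SE 0.10), a difference of -2.97 (SE 0.38). ANPEP, aminopeptidase N of the proximal tubule brush border, had 68.2, 70.3 and 70.1 CPM in BBOX1 xenografts, 269, 302 and 169 CPM in EV xenografts, 80.3, 82.2 and 83.5 CPM in BBOX1 culture and 126, 113 and 114 CPM in EV culture. Groups did not overlap in either setting, and the difference was -1.31 (SE 0.21).

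SERPINA1, which encodes alpha-1 antitrypsin, had 237, 313 and 339 CPM in BBOX1 xenografts, 939, 1187 and 905 CPM in EV xenografts, 56.7, 57.3 and 54 CPM in BBOX1 culture and 66, 66.4 and 62.3 CPM in EV culture. It was higher in every xenograft than in any culture library, and the gain was smaller with BBOX1, with a difference of -1.56 (SE 0.18). SYT12, a synaptotagmin, had 29.1, 22.8 and 24.7 CPM in BBOX1 xenografts, 85.2, 104 and 86.3 CPM in EV xenografts, 15.1, 15.6 and 16.2 CPM in BBOX1 culture and 25.6, 27 and 26 CPM in EV culture, a difference of -1.10 (SE 0.15). SPP1, osteopontin, differed by -1.05 (SE 0.20), APCDD1L by -1.30 (SE 0.20) and PMP22, a tetraspan membrane protein, by -0.89 (SE 0.14). Amino acid transporters with a fall in xenografts and no called effect in culture were SLC7A7 and SLC43A2. SLC43A2 had 71.5, 52.9 and 63 CPM in BBOX1 xenografts, 227, 223 and 175 CPM in EV xenografts and 7.76 to 11.3 CPM in culture, with a difference of -1.66 (SE 0.21), and SLC7A7 differed by -1.34 (SE 0.18). EPCAM, an epithelial adhesion protein, had 35.1, 37.1 and 28 CPM in BBOX1 xenografts, 111, 106 and 82.8 CPM in EV xenografts and 3.84 to 6.62 CPM in culture, a difference of -1.21 (SE 0.24).

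Positive differences were fewer: of the 326, BBOX1 xenografts were the high group for 107 and EV xenografts the low group for 42. ADGRB2, an adhesion G protein-coupled receptor, had 42.2, 43.3 and 49 CPM in BBOX1 xenografts, 19, 17 and 19.8 CPM in EV xenografts, 6.12, 5.42 and 6.86 CPM in BBOX1 culture and 6.14, 7.5 and 6.6 CPM in EV culture. SPATA13, an exchange factor for the GTPases RAC1 and CDC42, had 38.3, 37.9 and 36.1 CPM in BBOX1 xenografts, 19.4, 18.1 and 16.9 CPM in EV xenografts, 12.9, 12.1 and 11.5 CPM in BBOX1 culture and 11, 12.2 and 12.3 CPM in EV culture. BBOX1 xenografts lay above EV xenografts in both, culture groups overlapped, and the differences were 1.41 (SE 0.17, edgeR adjusted p = 0.00063) and 1.00 (SE 0.14). SEMA3A, a secreted guidance factor, and FILIP1L followed with 1.09 (SE 0.16) and 1.14 (SE 0.15), and FHL1, a LIM domain protein, with 0.92 (SE 0.13). ADAMTS1, a secreted metalloprotease, rose in both settings, by log2 0.88 (SE 0.13) in xenografts and 0.11 (SE 0.04) in culture, a difference of 0.77 (SE 0.12).

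A related protease, ADAMTS5, which cleaves the proteoglycan aggrecan, changed in opposite directions: 28.9, 22.2 and 26.2 CPM in BBOX1 xenografts, 13.3, 13.4 and 11.8 CPM in EV xenografts, 12.9, 13.6 and 11.6 CPM in BBOX1 culture and 18.8, 17.2 and 18 CPM in EV culture. It rose with BBOX1 in xenografts (log2 1.01, SE 0.15) and fell in culture (-0.50, SE 0.09), a difference of 1.51 (SE 0.17, edgeR adjusted p = 0.000286). GRB14, an adaptor that restrains the insulin receptor, had 43.8, 46.1 and 49.4 CPM in BBOX1 xenografts, 30.7, 22 and 18.8 CPM in EV xenografts, 20.3, 21 and 20.7 CPM in BBOX1 culture and 27.1, 26.3 and 26.7 CPM in EV culture. The groups did not overlap in either setting, and its difference was 1.33 (SE 0.19). NFAT5, the transcription factor of osmotic stress, had 40.2, 40.3 and 32.4 CPM in BBOX1 xenografts, 25.7, 25.2 and 22.9 CPM in EV xenografts, 44.4, 44.4 and 42.6 CPM in BBOX1 culture and 53.7, 47.9 and 49.7 CPM in EV culture. DAPK1, a death-associated kinase, and PTPRS, a receptor tyrosine phosphatase, shared this order, with EV xenografts the low group, and the 3 differences were 0.82 (SE 0.14), 0.65 (SE 0.10) and 0.92 (SE 0.15). CNTNAP1, a contactin-associated protein, also had low EV xenografts, with 53.6, 65.5 and 62.6 CPM in BBOX1 xenografts, 34.8, 33.2 and 40.7 CPM in EV xenografts and 46.9 to 52.8 CPM in culture (difference 0.86, SE 0.14).

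For 164 genes the effect of BBOX1 was called in culture alone. The label says where an effect passed and not where it was larger, since culture libraries varied less. Among the 99 with a negative difference the median log2 effect was -0.35 in xenografts and 0.16 in culture. Among the 65 with a positive difference it was 0.41 in xenografts and -0.31 in culture. OGT, the enzyme that adds O-linked N-acetylglucosamine to proteins (chrX:71533083-71575897, plus strand, GRCh38), had 286, 281 and 284 CPM in BBOX1 xenografts, 265, 256 and 199 CPM in EV xenografts, 194.03, 191 and 184 CPM in BBOX1 culture and 250.1, 248 and 257 CPM in EV culture. BBOX1 culture was the low group, and the fall in culture passed (log2 -0.41, SE 0.03). In xenografts the effect was 0.25 (SE 0.13) and did not pass, and the difference was 0.65 (SE 0.13, edgeR adjusted p = 0.0135).

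TXNIP, an arrestin-family protein that limits glucose uptake, had 618, 482 and 487 CPM in BBOX1 xenografts, 437, 371 and 364 CPM in EV xenografts, 33.7, 31.9 and 29.6 CPM in BBOX1 culture and 45.2, 47.2 and 49.1 CPM in EV culture. Its level was several times higher in every xenograft than in culture, BBOX1 lowered it in culture (log2 -0.57, SE 0.06), and the xenograft effect was 0.44 (adjusted p = 0.0892), a difference of 1.01 (SE 0.15). LAMA5, a laminin alpha chain, SYTL2, a Rab27 effector, KCNIP3, a calcium sensor, and LOXL1, a lysyl oxidase of the matrix, were likewise more abundant in all xenografts than in culture and fell with BBOX1 in culture alone. LAMA5 had 856, 947 and 972 CPM in BBOX1 xenografts, 823, 866 and 778 CPM in EV xenografts, 72.3, 67.7 and 70.6 CPM in BBOX1 culture and 106, 101 and 95.7 CPM in EV culture. Its xenograft groups overlapped. Their differences were 0.69 (SE 0.11), 1.06 (SE 0.17), 0.92 (SE 0.16) and 0.83 (SE 0.15). WNT7B, a Wnt ligand, had the reverse distribution, with 13.1, 6.38 and 8.89 CPM in BBOX1 xenografts, 5.94, 4.48 and 3.37 CPM in EV xenografts, 77.1, 79.4 and 82.1 CPM in BBOX1 culture and 104, 102 and 102 CPM in EV culture, a difference of 1.42 (SE 0.27).

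Among rises in culture alone, PKP2, a desmosomal plakophilin, had 0.893, 1.44 and 0.192 CPM in BBOX1 xenografts, 3.07, 2.95 and 2.01 CPM in EV xenografts, 3.79, 4.12 and 3.15 CPM in BBOX1 culture and 1.61, 1.86 and 2.05 CPM in EV culture. BBOX1 culture lay above EV culture and BBOX1 xenografts below EV xenografts. The rise in culture was 0.99 (SE 0.21), the xenograft effect of -1.66 (SE 0.53) did not pass, and the difference was -2.67 (SE 0.55). DUSP1, a phosphatase of MAP kinases, rose by 0.24 (SE 0.05) in culture and had a difference of -0.75 (SE 0.16). Its edgeR call was lost without EV xenograft replicate 2, BBOX1 culture replicate 2, EV culture replicate 2 or EV culture replicate 3 (adjusted p up to 0.0584). In limma voom DUSP1 passed in all 12 fits without 1 library (adjusted p up to 0.0169). 2 genes of transport and signalling passed on few counts in culture: SLC22A2, the organic cation transporter OCT2, had 212, 114 and 136 counts in BBOX1 xenografts, 140, 130 and 131 counts in EV xenografts, 0, 1 and 0 counts in BBOX1 culture and 5, 5 and 13 counts in EV culture, and GRM8, a glutamate receptor, 0 counts in each BBOX1 culture library and 5, 4 and 3 in EV culture. Both xenograft groups of each gene overlapped. The edgeR call of SLC22A2 was lost without BBOX1 culture replicate 1 or EV culture replicate 3. That of GRM8 was lost without BBOX1 culture replicate 1 or 2 or EV culture replicate 1 or 2. Adjusted p reached 0.0675 and 0.0642. In limma voom both passed in all 12 fits without 1 library.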

How the data were processed

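RNA-seq counts per gene were deposited by the authors for all 12 libraries in 1 table of 58735 genes. Per the submitters' processing notes, fastp, STAR, featureCounts and DESeq2 were used with hg38. No source used here gives the versions or roles of these tools, the gene annotation, or whether reads from mouse cells were taken out. All 58735 gene IDs and names were identical to GENCODE 29. The libraries are paired-end, and per the labels the NEBNext Ultra kit was used.

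Counts were fitted with edgeR 4.0.16 in R 4.3.3: filterByExpr with a minimum count of 10 kept 16927 genes, libraries were scaled by TMM, and the interaction of vector and setting was tested by quasi-likelihood across all 4 groups with Benjamini-Hochberg adjustment. Effects within a setting were fitted on its 6 libraries. CPM values of single genes use the TMM library sizes. Summed CPM of marker lists were scaled by total counts instead. Total counts set the precision and are given per library with the report. Alternatives were limma 3.58.1 voom with a quality weight per setting, DESeq2 1.42.0, its size factors in edgeR, no filter, a filter of 1 CPM in 3 libraries, a log2 size of at least 1, a replicate block, other pseudocounts (0.1 and 1 in place of 0.5) and each library left out in turn. The fits were also tested on simulated data, and no outcome of that test is reported here.

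Members and gene lists, and with them the choice of genes to name, were set with earlier results of these data known. The rule took BBOX1, TBK1, MTOR and RPTOR; protein-coding genes past the test in edgeR and limma voom with at least 1 CPM in 1 group (the 14 most extreme in each direction, the 10 most abundant with a log2 size of at least 1, the 8 of smallest p in each setting pattern and the 6 in each group pattern); up to 5 members of smallest p from each list; and the 3 most abundant of each marker list. The text gives a part of them, and some are not reported here. Promoters to print were chosen after the values were seen. Motifs were searched on both strands of 250 upstream bases.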

Additional observations from a re-analysis of the deposited data

Results flagged for a closer look

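The effect of BBOX1 differed between xenografts and culture, by an edgeR test of the difference itself, for 326 genes upward and 552 genes downward. Among them, genes had called effects of opposite sign in the 2 settings. Those that fell with BBOX1 in xenografts and rose in culture include, with their log2 differences, the thioredoxin reductase TXNRD1 (-1.82), the adhesion protein AMIGO2 (-1.29), the lipid droplet protein PLIN2 (-1.15), the exchanger chain SLC3A2 (-0.99), the tubulin TUBA1C (-0.99), the serine hydroxymethyltransferase SHMT2 (-0.90), the glucose transporter SLC2A1 (-0.88), the mitotic kinases AURKA (-0.85) and PLK1 (-0.83), the glutamine transporter SLC1A5 (-0.83), the transcription factor MYBL2 (-0.75), the phosphofructokinase PFKP (-0.70), cyclin CCNB1 (-0.68) and the lactate exporter SLC16A3 (-0.58). Those that rose in xenografts and fell in culture include the kinase DAPK1 (0.65), the osmotic stress factor NFAT5 (0.82), the phosphatase PTPRS (0.92), the adaptor GRB14 (1.33) and the protease ADAMTS5 (1.51). In all 19 of these genes the culture effect was smaller in size than the xenograft effect.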

How the results depend on the processing

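Counts of positive and negative differences, 326 and 552, were 532 and 924 in limma voom with a quality weight per setting, 605 and 1088 in DESeq2, 570 and 1092 with no filter on low counts, and 99 and 149 with a log2 size of at least 1. With DESeq2 size factors they were 304 and 578, and with a filter of 1 CPM in 3 libraries 349 and 543. Leaving out 1 library gave 63 to 1432 positive and 206 to 2750 negative in edgeR. In limma voom it gave 128 to 1345 and 376 to 2405. A replicate block gave 77 and 199. Same-numbered libraries correlated at -0.0833, -0.0787 and 0.0368 in xenografts and 0.00292, 0.0213 and -0.000443 in culture. Libraries of different numbers correlated at -0.0968 to 0.145 in xenografts and -0.0252 to 0.0219 in culture. The former lie within the range of the latter, so they do not decide whether the numbers pair the samples. With DESeq2 within each setting, opposite signs held for 79 genes, culture alone for 91 and neither for 110. Patterns by group stayed within 1.5 times under both other pseudocounts. Over named genes and their alternatives, 1597 values kept direction and side of the threshold, 148 kept direction only, and 1 changed sign, that of MTOR (-0.064 without BBOX1 xenograft replicate 1; 0.174 without replicate 2). The cause was not tested. Depth limits genes with few counts in culture.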

Other observations

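Properties outside the lists also differed between genes past the test and all tested genes; these are descriptions chosen after the values were seen. Exons of protein-coding genes with a positive difference covered a median of 7328 bases, those with a negative difference 4014 bases, and all 13390 tested protein-coding genes 5105 bases. Over tested protein-coding genes, the Spearman rank correlation with this length was 0.14 for the difference. It was 0.06 for the effect in xenografts and -0.21 for the effect in culture. Of 443 tested genes with a ZNF symbol, zinc finger genes many of which encode transcriptional repressors, 29 had a positive difference past the test (6.55%) and 3 a negative one, with a median log2 difference of 0.26. Over all tested genes 1.93% had a positive and 3.26% a negative difference. By chromosome, beside the same shares, 33 of 519 tested genes on chromosome 14 (6.36%) and 36 of 570 on chromosome 15 (6.32%) had a negative difference, while 0 of 180 on chromosome 21 did and 6 had a positive one (3.33%). These 3 were picked from all chromosomes for their extreme shares.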
